A study of Mus musculus with 35 samples.

Results

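The complement genes C1qa, C1qb, C1qc, C4b, C3, Cfp, C3ar1, C5ar1 and Cd55 were followed in CD45+ve brain cells of the mouse across postnatal development. These 9 genes were taken by name from a table of 55401 genes counted by mRNA sequencing. They are components, receptors and a regulator of complement, and the rule that names them uses no measured value. All 9 passed the filter on low counts that left 17612 genes for testing. The cells came from whole brains of wild-type C57BL/6 mice at postnatal day 6 (P6), postnatal day 15 (P15) and 8 weeks, and every library was made from 1 mouse. Female and male mice were sampled at each age and the labels name no transgene or treatment. Cells were caught by immunopanning, in which cells that carry the surface protein CD45 are held on a plate by an antibody to it, after the meninges and blood clots had been taken off by hand. CD45 is carried by microglia, the resident immune cells of the brain, and by other white blood cells, so the gate is not specific to microglia. Values are over 34 mice, with 4 females and 6 males at P6, 6 females and 6 males at P15, and 6 females and 6 males at 8 weeks. The study set aside 1 mouse as an outlier, which its text does not name. P6 female 6 was left out here as that mouse, and its values are given apart.

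Complement is a set of proteins that tag particles and cells and pass the signal on to phagocytes. C1q, a protein built from A, B and C chains, starts the classical pathway, C4 is cleaved next, and C3 is the component on which the classical, lectin and alternative pathways meet. In the developing brain, C1q and C3 are known for marking synapses that microglia remove through complement receptor 3, and microglia are known as a main source of C1q in the brain.

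Each of 6 microglial markers (among them P2ry12, Tmem119, Sall1, Cx3cr1 and Csf1r) was counted at every age. Markers of other cells were counted too, so detection alone does not set these libraries apart as microglia. Levels are in CPM (counts scaled to the library total, here corrected by the trimmed mean of M values, TMM). The summed level of the 6 microglial markers had a median of 11028 at P6 (range 9180.0 to 16458), 28548 at P15 (18800 to 38579) and 31907 at 8 weeks (26617 to 38936). Markers of other cells moved with age as well. The summed level of 9 neural progenitor markers had a median of 1691 CPM at P6 (653 to 2048), 330.2 at P15 (119 to 903) and 103 at 8 weeks (90.7 to 207). For 6 neuronal markers these values were 705 CPM at P6 (277 to 947), 318 at P15 (85.8 to 741) and 110.4 at 8 weeks (49.8 to 204). For 9 monocyte and macrophage markers they were 992 CPM at P6 (728 to 1558), 858 at P15 (309 to 1024) and 486 at 8 weeks (368 to 733). Other lists had their lowest median at P6. For 6 oligodendrocyte markers the summed level had a median of 259 CPM at P6 (167 to 498), 1428 at P15 (806 to 3567) and 574 at 8 weeks (389 to 1886), and for 6 astrocyte markers 621 (334 to 868), 2715 (678 to 6271) and 2316 (1386 to 4345). For 6 neutrophil markers it was 22.4 (16.1 to 70.5), 36.7 (15.4 to 99.8) and 75.8 CPM (30.2 to 200.4). No gene of these lists was at 0 in every mouse of an age. P6 female 6 had 1527 CPM of neuronal and 2313 CPM of progenitor markers, above the 10 other P6 mice, and 4173 CPM of microglial markers, below all of them. In whole libraries like these, fewer cells of a type and less RNA per cell cannot be told apart.

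C1qa, C1qb and C1qc lie side by side on the minus strand of chromosome 4 (GRCm38) within 18675 bases that hold no other annotated gene. C1qb covers 136880129 to 136886187, C1qc covers 136889804 to 136893065 and C1qa covers 136895917 to 136898803, with gaps of 3616 and 2851 bases between them. C4b (34728380 to 34743882) and C3 (57203970 to 57228136) lie on chromosome 17, C3ar1 on chromosome 6 (122847138 to 122856161), C5ar1 on chromosome 7 (16246743 to 16259540), Cfp on the X chromosome (20925454 to 20931555) and Cd55 on chromosome 1 (130439027 to 130462744). All 9 are protein-coding genes on the minus strand. C4b has a near-identical copy, C4a, and Cd55 has Cd55b, so reads that these pairs share leave their counts uncertain.

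The sequence before the transcription start is shown for C1qb and C1qc, which both rose from P6 to P15, and for C3 and C3ar1, the ligand precursor and receptor whose levels changed in opposite directions from P15 to 8 weeks. The set of RefSeq promoter windows used here held 7 of the 9 genes (build GRCm38.p6), and C1qa and C4b were not among them. Each sequence is read 5′ to 3′ on the minus strand, is limited to bases outside the annotated gene, and has motif matches in capitals. Distances in the windows are counted from the RefSeq start, which for C1qc (136892914) lies inside the gene as annotated, so the C1qc stretch stops short of that start.
C1qb, chr4:136886201-136886450: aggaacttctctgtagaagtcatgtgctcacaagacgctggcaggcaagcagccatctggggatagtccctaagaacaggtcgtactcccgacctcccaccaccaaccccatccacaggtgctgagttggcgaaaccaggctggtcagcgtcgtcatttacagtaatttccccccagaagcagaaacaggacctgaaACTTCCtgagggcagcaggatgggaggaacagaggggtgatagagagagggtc
C1qc, chr4:136893066-136893164: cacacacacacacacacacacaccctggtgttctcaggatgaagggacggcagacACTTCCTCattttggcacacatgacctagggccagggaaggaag
C3, chr17:57228137-57228386: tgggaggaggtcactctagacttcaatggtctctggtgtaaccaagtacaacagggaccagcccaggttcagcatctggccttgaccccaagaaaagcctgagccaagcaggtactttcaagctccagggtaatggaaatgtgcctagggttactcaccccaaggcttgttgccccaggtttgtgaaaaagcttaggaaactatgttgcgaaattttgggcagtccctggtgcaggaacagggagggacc
C3ar1, chr6:122856162-122856407: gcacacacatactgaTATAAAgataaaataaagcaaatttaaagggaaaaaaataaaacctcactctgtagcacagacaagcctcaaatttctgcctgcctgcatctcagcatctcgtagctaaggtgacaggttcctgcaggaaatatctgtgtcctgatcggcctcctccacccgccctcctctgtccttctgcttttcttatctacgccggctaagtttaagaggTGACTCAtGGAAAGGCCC

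The 250 bases before each start were searched on both strands for 7 motifs. The core of the ETS family motif to which PU.1 binds, GGAAGT, was matched in 3 of the 7 windows, those of C1qb, C1qc and C5ar1, and in 19.7% of 32851 RefSeq windows of the same length. In C1qb the match lay 53 to 48 bases before the start. The longer form GAGGAAGT, which contains the core, was matched in C1qc alone, 195 to 188 bases before the RefSeq start, and in 2.44% of all windows. C3ar1 held TGAGTCA, the AP-1 motif (4.46% of windows), 22 to 16 bases before its start, a form of the NF-kappa-B motif (1.41%), 14 to 5 bases before it, and TATAAA (12.4%), 235 to 230 bases before it. No window of the 7 held the E-box CACGTG (6.02%) or the STAT motif TTCNNNGAA (7.02%), and the C3, Cfp and Cd55 windows held none of the 7 motifs. A match describes the letters and does not show that a factor binds.

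Changes between ages are given as log2 fold change (log2FC) ± SE from an edgeR quasi-likelihood fit, with p adjusted over all 17612 genes (FDR), and a gene was called changed at an FDR below 0.05. From P6 to P15, 5 of the 9 genes rose (C1qa, C1qb, C1qc, C4b and Cd55), 2 fell (C3ar1 and C5ar1) and 2 were not called. Among all genes tested, 30.4% rose and 31.4% fell in this comparison. From P15 to 8 weeks, 5 rose (C1qa, C1qb, C3ar1, C5ar1 and Cd55) and 2 fell (C3 and Cfp), against 24% and 23.9% of all genes. Between P6 and 8 weeks, 6 were higher and 1, C3, was lower at 8 weeks, against 37.8% and 36.6% of all genes. The median log2FC of the 9 genes was 0.68, 0.30 and 0.95 in these comparisons, beside medians of -0.014, 0.018 and 0.038 over all genes. The 3 comparisons share mice, so they are not independent of each other.

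Calls of a change past 2-fold were few. C4b alone passed this test from P6 to P15, where 4.87% of all genes passed it upwards and 4.85% downwards. C3 alone passed it from P15 to 8 weeks, downwards (3.07% of all genes, with 1.2% upwards). C1qa and Cd55 passed it upwards and C3 downwards between P6 and 8 weeks, against 11.5% and 12.4% of all genes. The ranges of single mice did not overlap for 1 of the 9 genes from P6 to P15, for none from P15 to 8 weeks and for 5 between P6 and 8 weeks. Over all genes these shares were 13%, 3.37% and 29.6%.

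**Figure D1:**
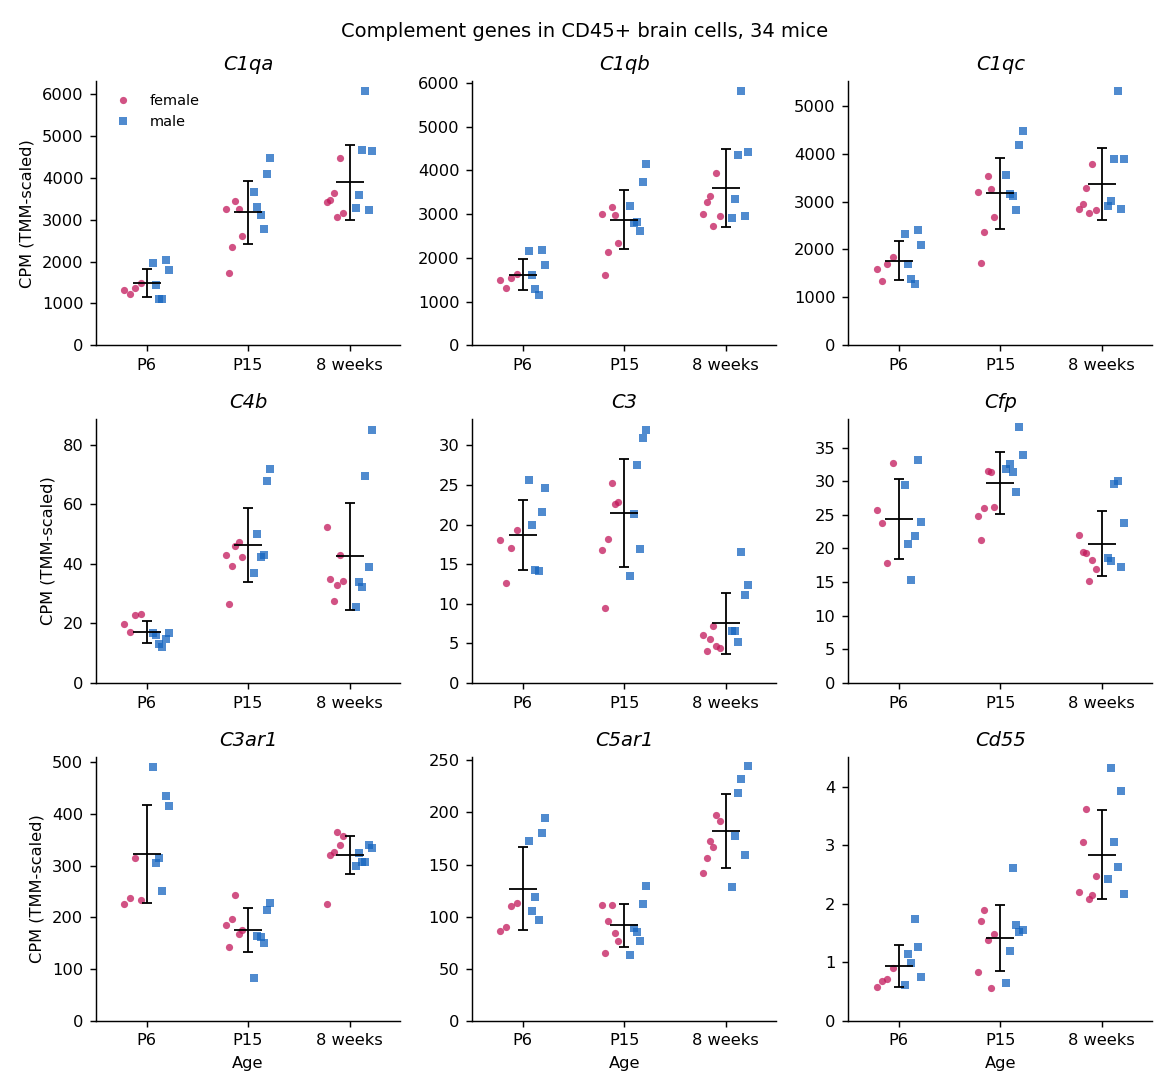
TMM-scaled CPM (linear axis from 0) of the 9 complement genes by age, with 1 point per mouse, circles for females, squares for males, and bars for the mean ± SD over the 10, 12 and 12 mice of an age. The C1q chains, C4b and Cd55 are lowest at P6, C3ar1 and C5ar1 are lowest at P15, and C3 is lowest at 8 weeks.

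**Figure D2:**
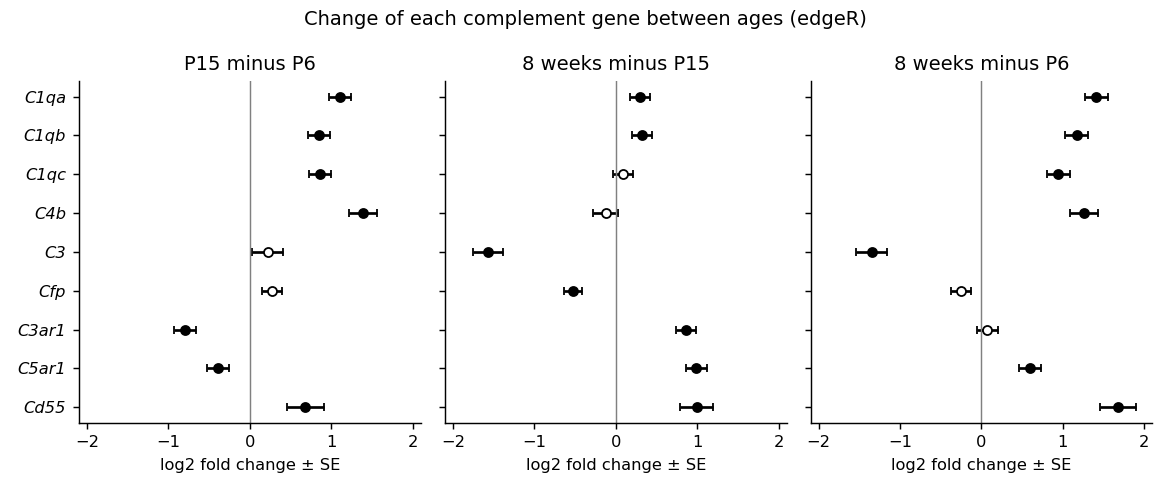
Log2FC ± SE of the 9 complement genes in the 3 age comparisons, with filled points for an FDR below 0.05 and open points otherwise. C3 and Cd55 lie at opposite ends between P6 and 8 weeks, at -1.35 and 1.68.

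The chains of C1q were the most abundant of these transcripts. C1qa ran from 1101 to 2036 CPM at P6 (median 1406), from 1737 to 4483 at P15 (median 3247) and from 3060.1 to 6065 at 8 weeks (median 3538). The P6 and 8-week mice did not overlap, and P15 overlapped with both. C1qa rose by a log2FC of 1.11 ± 0.14 from P6 to P15 (FDR 2.38e-08) and by 0.30 ± 0.12 from P15 to 8 weeks (FDR 0.0469). Between P6 and 8 weeks it was 2.66-fold higher (log2FC 1.41 ± 0.14, FDR 9.99e-11).

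C1qb ran from 1149 to 2174 CPM at P6 (median 1564), from 1604 to 4138 at P15 (median 2899) and from 2720.1 to 5814 at 8 weeks (median 3315). C1qc ran from 1278 to 2412 CPM at P6 (median 1704), from 1713 to 4484 at P15 (median 3179) and from 2764 to 5316 at 8 weeks (median 2983). In both genes the 8-week mice lay above every P6 mouse. C1qb rose by 0.84 ± 0.14 from P6 to P15 (FDR 3.39e-06) and by 0.32 ± 0.13 to 8 weeks (FDR 0.0343). C1qc rose by 0.86 ± 0.14 to P15 (FDR 2.22e-06), and its log2FC from P15 to 8 weeks was 0.09 ± 0.12 (FDR 0.574).

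The same animals stood at the ends of all C1q chains. P15 female 2 was the lowest P15 mouse and 8-week male 4 the highest 8-week mouse for each chain. The calls on C1qa and C1qb from P15 to 8 weeks lay near the threshold. Without 8-week male 4 the log2FCs were 0.24 (FDR 0.0812) and 0.26 (FDR 0.0598), and without P15 male 1 they were 0.28 (FDR 0.0881) and 0.30 (FDR 0.0717). With any P6 female left out the log2FC of C1qa was 0.28 to 0.30 (FDR 0.0518 to 0.0616), since these mice enter that comparison through the shared spread, scaling and set of genes tested. With P6 female 6 added back the log2FCs stayed at 0.30 and 0.33, with FDRs of 0.0729 and 0.06. P6 female 6 had 593 CPM of C1qa, 601 of C1qb and 633 of C1qc, each below all other P6 mice.

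Markers of neural cells moved over the same ages. From P6 to P15 all 9 neural progenitor markers fell, while of the 6 neuronal markers 2 rose and 2 fell. With the mean log2 CPM of these markers as a covariate, the rise from P6 to P15 stayed called for C1qa (log2FC 0.70, FDR 2.3e-05), C1qb (0.41, FDR 0.00672) and C1qc (0.43, FDR 0.0044). It was not called between P6 and 8 weeks for C1qa (0.44, FDR 0.105), C1qb (0.15, FDR 0.598) or C1qc (-0.066, FDR 0.822). The covariate ran from 4.74 to 6.48 at P6 and from 1.84 to 3.43 at 8 weeks, without overlap, so age and this marker level cannot be told apart in that comparison. From P15 to 8 weeks the log2FCs with this covariate were -0.26 for C1qa (FDR 0.164), -0.26 for C1qb (FDR 0.164) and -0.49 for C1qc, which was called lower (FDR 0.00704).

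The chains did not rise in equal measure. Ratios of their counts within a library do not depend on how libraries are scaled, and gene length cancels in a change of ratio. The ratio of C1qa to C1qc had a geometric mean of 0.84 at P6 (0.8 to 0.905 over 10 mice), 1.001 at P15 (0.977 to 1.05 over 12) and 1.16 at 8 weeks (1.11 to 1.2 over 12). The 3 ages did not overlap. On the log2 scale, the ratio rose by 0.25 from P6 to P15 and by 0.21 from P15 to 8 weeks, and a two-sided permutation test gave an adjusted p of 2.57e-05 in each (100000 permutations, adjusted over 9 comparisons). The unadjusted p, 2e-05, is the smallest that these permutations can give.

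The other ratios each changed in 1 interval. The ratio of C1qa to C1qb was 0.917 at P6 (0.868 to 0.979), 1.10 at P15 (1.07 to 1.17) and 1.09 at 8 weeks (1.04 to 1.14). It rose by 0.27 on the log2 scale from P6 to P15 (permutation test, adjusted p = 2.57e-05), and its difference from P15 to 8 weeks was -0.023 (adjusted p = 0.226, permutation test). The ratio of C1qb to C1qc was 0.916 at P6 (0.881 to 0.974), 0.908 at P15 (0.878 to 0.938) and 1.07 at 8 weeks (0.984 to 1.14). Its difference from P6 to P15 was -0.013 (adjusted p = 0.433, permutation test), and it rose by 0.23 from P15 to 8 weeks (adjusted p = 2.57e-05, permutation test). Relative to the other chains, C1qa transcripts thus gained between P6 and P15 and C1qc transcripts lost between P15 and 8 weeks.

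The ratios were tight beside the levels. The SD of the log2 ratio of C1qa to C1qc was 0.055 at P6, 0.031 at P15 and 0.047 at 8 weeks, where the SD of log2 CPM of C1qa was 0.32, 0.37 and 0.30. P6 female 6 had a C1qa to C1qb ratio of 0.986 and a C1qa to C1qc ratio of 0.937, above all other P6 mice and below all P15 mice in each. No call on a ratio changed in the 8 alternatives tried. The paper states that libraries were pooled for sequencing over several lanes. The sources used here assign no mouse to a sequencing run, so a run shared by an age and the age itself cannot be told apart.

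**Figure D3:**
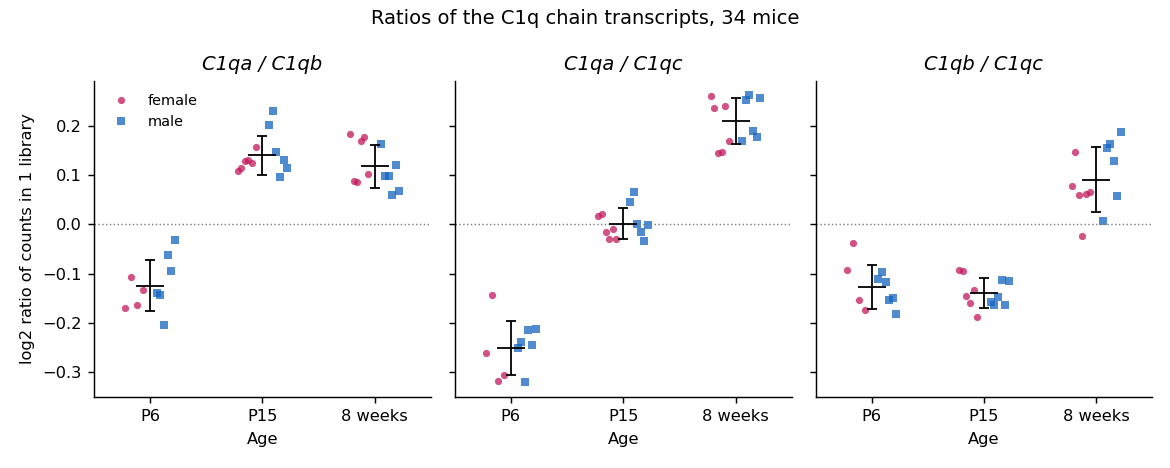
Log2 ratio of the counts of 2 C1q chains in the same library by age, with 1 point per mouse, circles for females, squares for males, and bars for the mean ± SD (10, 12 and 12 mice). The ratio of C1qa to C1qc rises at each step, that of C1qa to C1qb between P6 and P15, and that of C1qb to C1qc between P15 and 8 weeks.

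C4b encodes the mouse C4 component of the classical pathway. It ran from 12.02 to 23.1 CPM at P6 (median 16.7), from 26.6 to 71.7 at P15 (median 43.0) and from 25.4 to 85.0 at 8 weeks (median 34.5). Every P15 and 8-week mouse lay above every P6 mouse. C4b rose 2.62-fold from P6 to P15 (log2FC 1.39 ± 0.17, FDR 3.13e-08), and the test against 2-fold gave an FDR of 0.0352. This call past 2-fold was lost without P6 female 1 or 2, and under library-size scaling, DESeq2, limma-voom, no filter, a minimum of 10 counts in every mouse, the replicate block or the neural marker covariate. The log2FC from P15 to 8 weeks was -0.12 ± 0.16 (FDR 0.525). With the neural marker covariate C4b was called lower over this interval (log2FC -0.63, FDR 0.0197) and was not called between P6 and 8 weeks (0.34, FDR 0.418). Of the 6 oligodendrocyte markers 5 rose from P6 to P15 and 4 fell from P15 to 8 weeks, and of the 6 astrocyte markers 4 rose and then 1 fell, and their part in the course of C4b was not tested. The 8-week mice spread widely, with 8-week males 6 and 4 at 85.0 and 69.5 CPM. Counts on the copy C4a were low, with mean levels of 0.419, 0.609 and 0.934 CPM at the 3 ages.

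C3 went the other way. It ran from 12.6 to 25.6 CPM at P6 (median 18.7), from 9.49 to 31.9 at P15 (median 21.9) and from 4.02 to 16.5 at 8 weeks (median 6.29). Most 8-week mice lay below the other ages, and 8-week male 4 (16.5 CPM), male 6 (12.4) and male 5 (11.1) reached into the P15 range. C3 fell 2.96-fold from P15 to 8 weeks (log2FC -1.57 ± 0.18, FDR 3.78e-08), with an FDR of 0.0113 against 2-fold, a call that was lost under limma-voom. It fell by 1.35 ± 0.19 on the log2 scale between P6 and 8 weeks (FDR 1.61e-07), and its log2FC from P6 to P15 was 0.22 ± 0.19 (FDR 0.323). The call past 2-fold between P6 and 8 weeks (FDR 0.0429) was lost without P6 female 1 or 5, with all 35 mice, under DESeq2 or limma-voom, and with age fitted without sex. With the neural marker covariate the fall from P15 was larger (log2FC -2.35). Of the 9 monocyte and macrophage markers, 6 fell over the same interval and 2 rose, Ccr2 (3.03-fold, FDR 1.34e-07) and Ly6c2 (3.89-fold, FDR 3.92e-08), and their part in the fall of C3 was not tested.

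Cfp encodes properdin, which stabilises the convertase of the alternative pathway. It ran from 15.2 to 33.1 CPM at P6 (median 23.9), from 21.3 to 38.1 at P15 (median 31.4) and from 15.2 to 30.1 at 8 weeks (median 18.9). The ranges overlapped at all ages. Cfp fell by 0.52 ± 0.12 from P15 to 8 weeks (FDR 0.000431). The log2FC from P6 to P15 was 0.27 ± 0.12 (FDR 0.0518) and that between P6 and 8 weeks was -0.25 ± 0.12 (FDR 0.062), and both crossed the threshold in several alternatives.

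C3ar1 and C5ar1 were lowest at P15. C3ar1, the receptor of C3a, ran from 227 to 491 CPM at P6 (median 309.6), from 82.9 to 243 at P15 (median 171) and from 225 to 366 at 8 weeks (median 326). P15 overlapped with both other ages at its edges, and P6 spread the most. C3ar1 fell by 0.80 ± 0.13 from P6 to P15 (FDR 3.5e-06) and rose by 0.87 ± 0.12 to 8 weeks (FDR 1.25e-06). Its log2FC between P6 and 8 weeks was 0.07 ± 0.13 (FDR 0.631). The lowest P15 value, 82.9 CPM, came from P15 male 1, which also had the lowest P2ry12 of its age (986 CPM).

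C5ar1, a receptor of C5a, ran from 86.0 to 195 CPM at P6 (median 112), from 63.2 to 129.5 at P15 (median 87.0) and from 129 to 245 at 8 weeks (median 175). The 8-week mice lay above all P15 mice but for a narrow overlap at 129 CPM. C5ar1 fell by 0.39 ± 0.14 from P6 to P15 (FDR 0.0127) and rose by 0.99 ± 0.13 to 8 weeks (FDR 2.95e-07). It was 1.51-fold higher at 8 weeks than at P6 (FDR 0.000261). With the neural marker covariate the rises from P15 to 8 weeks were smaller, at 0.25 for C3ar1 (FDR 0.143) and 0.40 for C5ar1 (FDR 0.0418), and the falls from P6 to P15 were larger, at -1.29 and -0.85. Between P6 and 8 weeks that covariate gave -0.45 for C5ar1 (FDR 0.113), which was no longer called, and -1.04 for C3ar1, which was called lower (FDR 6.75e-05).

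Cd55 encodes decay-accelerating factor, which takes C3 convertases apart on the cell surface. It was the scarcest of the 9, with 16 to 128 counts in a library. It ran from 0.576 to 1.74 CPM at P6 (median 0.821), from 0.556 to 2.62 at P15 (median 1.51) and from 2.09 to 4.33 at 8 weeks (median 2.55). All 8-week mice lay above all P6 mice. Cd55 rose by 0.68 ± 0.22 from P6 to P15 (FDR 0.00914) and by 0.996 ± 0.204 to 8 weeks (FDR 0.000196), and between P6 and 8 weeks it was 3.2-fold higher (FDR 7.66e-08, and 0.00247 against 2-fold). Cd55 stayed called in that comparison under the neural marker covariate (log2FC 1.84, FDR 0.00377), and at each step (0.75, FDR 0.0335, and 1.09, FDR 0.0106). Neither Cd55 nor C1qa (0.44, FDR 0.105) was then called past 2-fold between P6 and 8 weeks. The first step was lost with P6 female 6 added back (log2FC 0.38, FDR 0.167), and that mouse had 2.43 CPM, above all other P6 mice.

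Levels can be compared between genes as CPM per kilobase of annotated exon (RPKM). The place of C1qc depends on its annotated length, 1931 bases beside 1088 for C1qb and 1040 for C1qa. In CPM, without division by length, C1qc was the highest chain in 10 of 10 P6 mice. At P6 the order was C1qb (1485 ± 322, mean ± SD), C1qa (1428 ± 325), C1qc (915 ± 207), C3ar1 (74.9 ± 21.9), C5ar1 (49.4 ± 15.6), Cfp (14.1 ± 3.43), C3 (3.64 ± 0.855), C4b (3.03 ± 0.65) and Cd55 (0.193 ± 0.075). The ranges of mice overlapped for C1qb and C1qa, with C1qb the higher in 8 of 10 mice, and for C3 and C4b, with C3 the higher in 7 of 10. At P15 C1qa (3052 ± 716) came before C1qb (2644 ± 622) and C4b (8.14 ± 2.19) before C3 (4.17 ± 1.33). At 8 weeks the order was as at P15, with C1qa at 3743 ± 860.5, C1qb at 3307 ± 826, C1qc at 1740.2 ± 389, C4b at 7.47 ± 3.16 and C3 at 1.46 ± 0.744. Within a library C1qa was above C1qb in 12 of 12 mice at both of these ages, as the ratios show. C3ar1 (40.9 ± 9.89 and 74.6 ± 8.39) was above C5ar1 (35.6 ± 8.04 and 71.0 ± 13.9) in 10 of 12 mice at P15 and 8 of 12 at 8 weeks, and their means differed by less than the SD between mice.

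The level of each gene was then set against microglia-enriched transcripts in the same library, as its log2 CPM minus the mean log2 CPM of the 6 microglial markers. All 6 markers rose from P6 to P15 (log2FC 1.01 to 2.95), and 1 of the 6 from P15 to 8 weeks. Of 27 comparisons (9 genes at 3 pairs of ages), 20 had an adjusted p under 0.05 in a two-sided permutation test. Since the marker mean itself rose by 1.52 from P6 to P15, most genes of the table fell on this scale, and 96.2% of the 17612 genes tested had a lower mean at P15. The corresponding shares were 62.8% from P15 to 8 weeks and 93.1% between P6 and 8 weeks, so falls relative to the markers are not particular to these genes. Of the 9 genes, 9, 4 and 9 had a lower mean in these comparisons. No share over all genes was computed for the permutation test, so its counts, rises included, cannot be set against the rest of the table. By that test, 8 of the 9 genes fell relative to the markers from P6 to P15. The exception was C4b, with a difference of -0.11 (adjusted p = 0.49, permutation test). From P15 to 8 weeks, 2 fell (C3 and Cfp) and 3 rose (C3ar1, C5ar1 and Cd55). Between P6 and 8 weeks 7 fell and none rose. The median difference of the 9 genes was -0.99, 0.13 and -0.76 in these comparisons, beside -1.56, -0.14 and -1.67 over all genes.

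On this scale the C1q chains, which rose in CPM, lay higher at P6 than later. C1qc was 0.52 ± 0.11 above the marker mean at P6 (log2, SD over 10 mice) and 0.24 ± 0.24 below it at 8 weeks, a fall of 0.76 (adjusted p = 4.15e-05, permutation test), and these ages did not overlap. C1qa fell by 0.43 from P6 to P15 (adjusted p = 0.00075, permutation test) and C1qb by 0.69 (adjusted p = 0.000101, permutation test). The fall of C1qa depends on which markers are averaged. In CPM its log2FC of 1.11 was above those of Cx3cr1 (1.01) and Sall1 (1.09). The other markers rose by more, up to 2.95 for Tmem119. C1qb (0.84) and C1qc (0.86) rose by less than each marker. At P15, male 1 stood apart, with C1qa 0.69 above the marker mean.

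C3 fell by 1.36 on this scale from P6 to P15 and by 1.74 from P15 to 8 weeks (adjusted p = 4.15e-05 in each permutation test), with no overlap of ages. Cfp fell by 1.21 and 0.71. C3ar1 fell by 2.38 from P6 to P15 and rose by 0.73 to 8 weeks, and C5ar1 fell by 1.96 and rose by 0.83, again with no overlap between successive ages. Cd55 fell by 0.99 and then rose by 0.87 (adjusted p = 0.00136 and 0.00075, permutation tests). A gene that rises by less than the marker mean, or does not change, falls on this scale. From P6 to P15 the C1q chains and Cd55, called higher in CPM, fell by less than the median gene (-1.56). So did C3 and Cfp, which were not called in CPM over that interval.

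**Figure D4:**
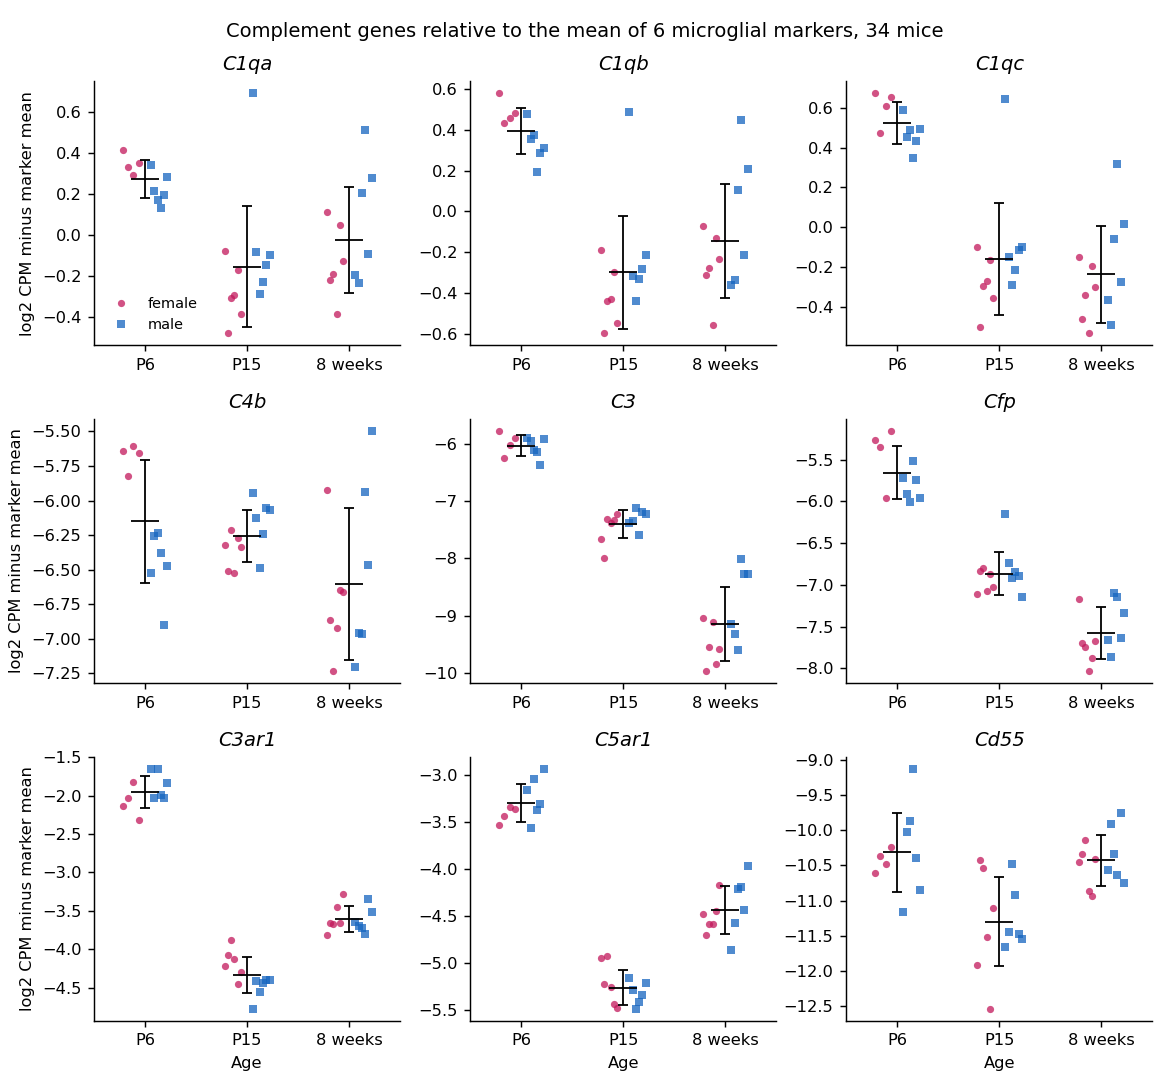
Log2 CPM of the 9 complement genes minus the mean log2 CPM of 6 microglial markers in the same library, by age, with 1 point per mouse, circles for females, squares for males, and bars for the mean ± SD (axes do not start at 0). C3 and Cfp fall at each step, and C3ar1 and C5ar1 fall from P6 to P15 and rise in part by 8 weeks. The marker mean itself rises by 1.52 from P6 to P15, a step at which C3 and Cfp are not called changed in CPM.

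Female and male mice were compared at each age. None of the 9 genes was called at P6, P15 or 8 weeks by edgeR, where the lowest FDR was 0.696, 0.27 and 0.419, and 2, 1 and 1 of them had an unadjusted p under 0.05. Few genes of the whole table were called (0.0511%, 0.0681% and 0.114%). C4b at P6 ran from 17.1 to 23.1 CPM in the 4 females and from 12.02 to 16.7 in the 6 males, without overlap, as was so for 4.76% of all genes at that age (log2FC male minus female -0.47 ± 0.25, edgeR FDR 0.696). C3 at 8 weeks ran from 4.02 to 7.2 CPM in females and from 5.21 to 16.5 in males (log2FC 0.87 ± 0.26, edgeR FDR 0.419). The interaction of sex and age was called for none of the 9 genes and 0% of all genes, and the lowest unadjusted p among the 9 were 0.0291 for C4b and 0.0327 for C3ar1.

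Beyond these 9 genes, a list of 49 other complement genes was examined, of which 30 passed the filter. From P6 to P15, 8 rose and 9 fell, where 30.4% and 31.4% of all genes did. From P15 to 8 weeks 9 rose and 10 fell (24% and 23.9% of all genes), and between P6 and 8 weeks 11 were higher and 13 lower (37.8% and 36.6%). The 19 that did not pass included genes of the terminal pathway (Hc, C7, C8a, C8b and C9), the mannose-binding lectins Mbl1 and Mbl2, and the regulators Cfi and C4bp. The median log2FC of the 30 was 0.17, -0.025 and -0.21 in the 3 comparisons.

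Of the classical and lectin components, C2, which pairs with C4 in the convertase, fell from 6.86 ± 2.07 CPM at P15 to 3.84 ± 1.16 at 8 weeks (log2FC -0.84, FDR 5.47e-05). C1ra, a protease of the C1 complex, rose from 2.65 ± 0.742 to 3.52 ± 0.577 CPM over the same interval (log2FC 0.41, FDR 0.0235), a call that was lost with no filter (FDR 0.0597) and with the neural marker covariate (log2FC 0.079, FDR 0.803). Fcna, a ficolin of the lectin pathway, fell from 34.1 ± 8.01 CPM at P6 to 21.5 ± 5.77 at P15 and 6.96 ± 2.35 at 8 weeks, with an FDR of 0.000887 and 2.51e-09 for these steps. Cfb, factor B of the alternative pathway, was at 0.731 ± 0.307 CPM at P6 and 0.687 ± 0.268 at P15. At 8 weeks it ranged from 0 to 0.143 CPM, about the level of 3 counts in a library (0.077 to 0.129 CPM), and its fall was called (FDR 7.22e-09). No 8-week mouse reached the 0.5 CPM of the filter, so Cfb was tested only through its younger mice. C3, Cfp, Cfb and C2 were thus all lower at 8 weeks than at P15.

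Among the other receptors, Itgax fell and then rose as C3ar1 and C5ar1 did, while C5ar2 and Itgb2 rose at both steps. C5ar2, the second receptor of C5a, rose from 16.9 ± 4.42 CPM at P6 to 73.6 ± 19.7 at P15 (log2FC 2.17, FDR 2.2e-14) and 98.9 ± 12.5 at 8 weeks (log2FC 0.43, FDR 0.00545), while C5ar1 fell over the first step. Itgam, the alpha chain of complement receptor 3, rose from 158 ± 35.5 to 482 ± 108 CPM between P6 and P15 (FDR 3.96e-13) and was at 484 ± 46.1 at 8 weeks. Itgb2, the beta chain shared by complement receptors 3 and 4, was called at each step (123 ± 28.7, 267 ± 68.1 and 438 ± 88.0 CPM). Itgax, the alpha chain of complement receptor 4, fell from 95.6 ± 23.9 CPM at P6 to 15.1 ± 4.97 at P15 (log2FC -2.68, FDR 3.56e-16) and rose to 28.7 ± 4.25 at 8 weeks (FDR 2.01e-06). With the neural marker covariate the steps from P15 to 8 weeks were not called for C5ar2 (log2FC -0.25, FDR 0.107), Itgb2 (-0.028, FDR 0.85) or Itgax (0.36, FDR 0.0839), and Itgam was called lower (-0.63, FDR 2.9e-06). Cr2 was at or near 0 until P15, with at most 0.19 CPM in a mouse, and at 0.291 to 2.04 CPM at 8 weeks (FDR 3.23e-08). No mouse at P6 or P15 reached the 0.5 CPM of the filter. Cr2 was thus tested only through its 8-week mice, and this FDR adds no separate support for the rise. C1qbp, a protein first described as a binder of C1q that is mainly mitochondrial, fell from 95.4 ± 7.85 CPM at P6 to 56.9 ± 6.17 and 45.2 ± 6.67.

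Among regulators, Cd46 rose from 0.906 ± 0.331 to 1.92 ± 1.26 and 4.81 ± 1.48 CPM, and Cr1l, which encodes Crry, from 51.9 ± 7.52 to 73.4 ± 12.3 and 94.1 ± 8.86 CPM. Each of these steps was called (FDR 0.000521 or lower), but with the neural marker covariate the second step of Cr1l was not (log2FC -0.085, FDR 0.412). Csmd3 rose from 3.75 ± 1.04 to 12.6 ± 4.96 and 66.4 ± 21.4 CPM. Its relatives went the other way, with Csmd1 at 7.82 ± 2.56, 4.47 ± 2.39 and 2.58 ± 1.05 CPM (FDR 0.00778 and 0.0104) and Csmd2 at 21.9 ± 5.19, 14.8 ± 8.15 and 6.09 ± 2.37 CPM (FDR 0.0491 and 0.000146). The first step of Csmd2 lay near the threshold and was lost in several alternatives, such as no filter (FDR 0.085), and the second step of Csmd1 was lost under limma-voom (FDR 0.0659). Clu (clusterin), an astrocyte-rich transcript, rose from 112 ± 41.0 to 485 ± 312 CPM at P15 (log2FC 2.09, FDR 4.42e-07), while 6 astrocyte markers went from a median sum of 621 CPM (334 to 868) to 2715 (678 to 6271). Sez6, a neuronal gene with complement-control domains, fell from 93.2 ± 40.6 to 45.4 ± 32.0 and 10.4 ± 5.32 CPM, and Serping1, the C1 inhibitor, from 11.1 ± 4.31 to 6.98 ± 3.94 and 4.06 ± 1.66. The log2FC of Clu from P15 to 8 weeks was 0.22 (FDR 0.507), and with the neural marker covariate it was called higher over this interval (1.68, FDR 0.000393). With that covariate the falls of Sez6, Serping1, Csmd1 and Csmd2 were not called, and the log2FCs turned positive, with Csmd2 called higher at the first step (0.39, FDR 0.0438) and Csmd1 at the second (0.78, FDR 0.0496). The first fall of Serping1 was also lost with no filter (FDR 0.0612), with the compared ages alone (FDR 0.0618) and without P6 female 1, 2 or 3 (FDR 0.0506 to 0.0584), and the second under limma-voom (FDR 0.0998) and without P15 male 1 (FDR 0.0585).

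**Figure D5:**
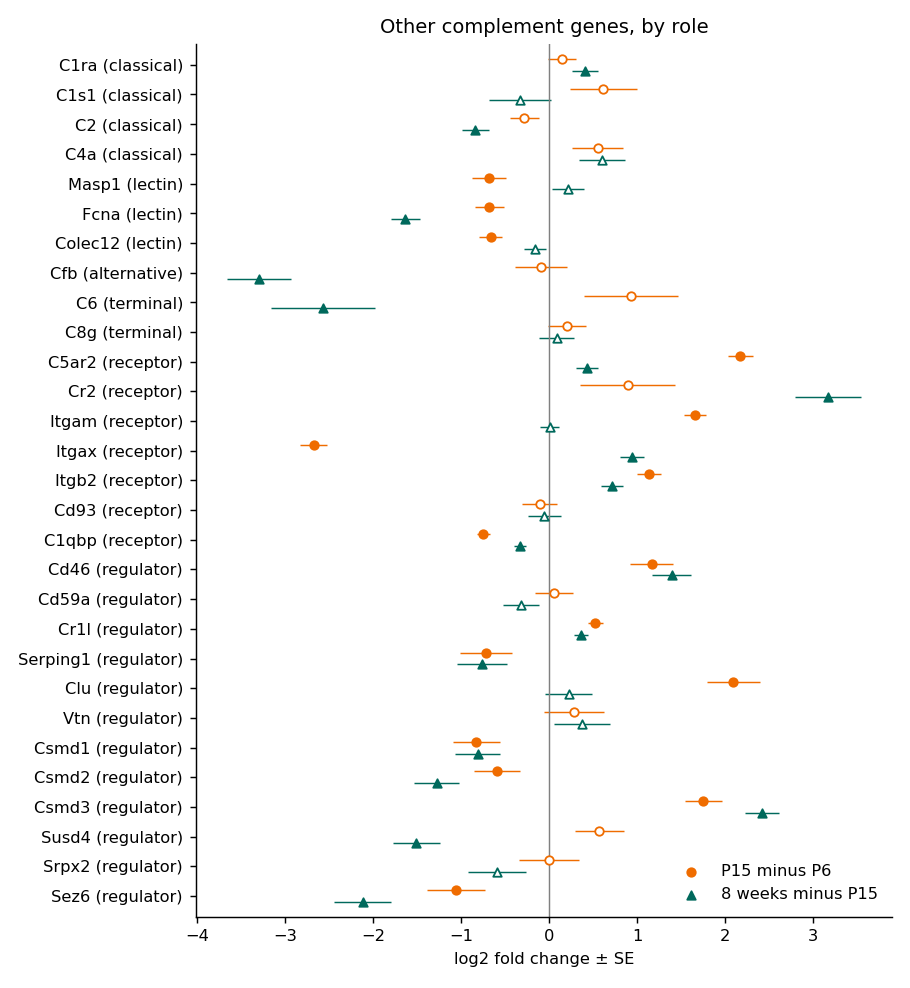
Log2FC ± SE of other complement genes that passed the filter, by role, from P6 to P15 (circles) and from P15 to 8 weeks (triangles), with filled symbols for an FDR below 0.05 and open symbols otherwise. In the fit shown, which has no marker covariate, C5ar2, Itgam and Clu rise mainly at the first step and Itgax falls at it. Csmd3 rises at both steps, and Cr2 rises and Cfb falls at the second. Cr2 and Cfb passed the filter only through the ages at which they are high.

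For each of the 9 genes, the gene whose course over the 34 mice was most alike was found from the root mean square (RMS) difference of log2 CPM after centring each gene. C1qa was nearest to Tcn2 (RMS 0.083), C1qb to Tapbp (0.101) and C1qc to Ly6e (0.087), where the median over all genes was 0.845, 0.779 and 0.746. Ly6e was also among the 3 nearest to C1qb (0.104). C3ar1 was nearest to Bcl2a1b (0.19) and then to Tlr2 (0.197), C5ar1 to Plau (0.208), and Cfp to Higd2a (0.194). None of the genes other than the C1q chains had a neighbour as close as theirs. C4b (Tmem63a, 0.335), C3 (Smim10l2a, 0.333) and Cd55 (Ogfrl1, 0.394) were the farthest from their nearest gene. These distances rest on the same libraries and depths and describe these mice.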

How the data were processed

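mRNA was sequenced in CD45+ve cells of 35 mice. The authors prepared directional libraries, sequenced paired ends on an MGISEQ2000-RS, aligned reads to GRCm38/mm10 with STAR and counted fragments per gene by strand with featureCounts; the submitters' processing notes also list fastp 0.20.0. The release of the gene annotation is not given in the sources used here. The authors deposited raw counts per gene, with neither filter nor normalisation. Mice passed the study's RNA quality control, and their labels gave the 6 groups of age and sex. Totals ran from 23316107 to 38965078 counts per mouse (median 32742525), so 3 counts, used as a floor, were 0.077 to 0.129 CPM, which covers counting error alone. No pair of libraries within a group was a copy (lowest chi-square per gene 12.8 over 85 pairs).

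Genes were named from GENCODE M21 (55141 of 55401 identifiers matched). Genes were kept where 5 or more of the 34 mice reached 0.5 CPM. Counts were fitted with edgeR 4.0.16 in R 4.3.3 (TMM, glmQLFit, robust, 1 mean per age and sex), and age contrasts averaged the sexes. Changes were tested with glmQLFTest, and past 2-fold with glmTreat, with Benjamini-Hochberg adjustment. SEs were taken from the F statistic. Log2 CPM used a prior count of 2. Ratios were tested by permutation in scipy 1.17.1. The script was tested on simulated data. Alternatives used DESeq2 1.42.0, limma 3.58.1 (voom), other scalings, filters, covariates and mice. The rule for named genes took the 9, the 3 nearest in course to each, markers, and any gene of the wider list that passed the filter; which of the last to describe was chosen after their values were seen. Results of some listed genes are not reported here. The 9 genes and all lists were chosen with earlier results of these data known.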

Additional observations from a re-analysis of the deposited data

Results flagged for a closer look

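Within the 6 groups of age and sex, 54 sets of values (9 genes in 6 groups) were examined with Dixon's test for a mouse far from the rest of its group, and 2 stood apart, where chance alone flags about 1 in 20. Both were C3ar1. 8-week female 1 had 225 CPM of C3ar1, where the 5 other 8-week females had 322 to 366. P6 female 3 had 315 CPM of C3ar1, where the 3 other P6 females had 227 to 237. No effect of sex on age changes, and no effect of age on sex differences, passed the interaction test among the 9 genes.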

How the results depend on the processing

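Of the 27 calls on the 9 genes (3 comparisons each), 23 to 26 were the same under each alternative other than the covariate of neuronal and neural progenitor markers, under which 14 were. Under that covariate, of the 9 genes 2 rose and 4 fell from P15 to 8 weeks and 1 was higher and 3 lower between P6 and 8 weeks, those past 2-fold were 0 higher and 1 lower from P6 to P15 and 0 higher between P6 and 8 weeks, and 5, 6 and 6 genes of the wider list fell in the 3 comparisons. Its log2FCs of opposite sign from P15 to 8 weeks were -0.26 for C1qa, -0.26 for C1qb, -0.49 for C1qc, -0.25 for C5ar2, -0.63 for Itgam, -0.028 for Itgb2, -0.085 for Cr1l, 0.87 for Serping1, 0.18 for Sez6, 0.78 for Csmd1 and 0.48 for Csmd2. Between P6 and 8 weeks they were -0.066 for C1qc, -1.04 for C3ar1, -0.45 for C5ar1, -0.011 for C1ra, 1.09 for Serping1, 0.41 for Sez6, 0.84 for Csmd1 and 0.88 for Csmd2, and from P6 to P15 they were -0.42 for C3, -0.090 for C1ra, 0.22 for Serping1, 0.23 for Sez6, 0.058 for Csmd1 and 0.39 for Csmd2. The cause was not tested.

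The 1 gene called past 2-fold from P6 to P15 became 0 under library-size scaling, DESeq2, limma-voom, no filter and at least 10 counts in every mouse. The 1 lower past 2-fold from P15 to 8 weeks became 0 under limma-voom, and that between P6 and 8 weeks became 0 with all 35 mice, DESeq2, limma-voom and age without sex. The 5 higher from P15 to 8 weeks became 3 with all 35 mice and with no filter. The 1 lower between P6 and 8 weeks became 2, with Cfp, under library-size scaling and at least 10 counts. The cause was not tested. Leaving out a P6 female in turn gave 0 to 1 past 2-fold from P6 to P15, 0 to 1 lower past 2-fold and 1 to 2 lower between P6 and 8 weeks. Leaving out P15 male 1 or 8-week male 4, chosen after seeing the data, gave 3 higher from P15 to 8 weeks and 2 lower between P6 and 8 weeks.

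Values near 0 that were called neither in the fit reported nor under these alternatives also changed sign: C3ar1 between P6 and 8 weeks (-0.061 under library size, -0.0074 for age without sex), and Itgam from P15 to 8 weeks (-0.0033 with DESeq2 and its size factors, -0.0072 with no filter, -0.0028 with at least 10 counts, and -0.082 to 0.0090 with mice left out). Cfb from P6 to P15 was -0.21 to 0.018 with P6 females left out. Relative to microglial markers, C4b between P6 and 8 weeks was called at -0.55 with all 35 mice and at -0.52 without 8-week male 4, C4b from P15 to 8 weeks at -0.41 without 8-week male 4, and C1qa and C1qb from P15 to 8 weeks at 0.21 and 0.23 without P15 male 1. With mice left out in turn, these differences ran from -0.52 to -0.40 and from -0.41 to -0.32 for C4b, from 0.083 to 0.21 for C1qa and from 0.10 to 0.23 for C1qb. Library-size scaling moved the median log2FC of all genes to -0.14 from P6 to P15 and -0.10 between P6 and 8 weeks, and the share of calls that were higher from 49.1% to 39.4% in the first.

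Replicate numbers did not pair mice: correlations of same-numbered mice had a median of 0.033 (-0.54 to 0.69, 80 pairs), beside -0.011 for 400 other pairs. With a replicate block 26 of the 27 calls were the same, Cfp rose from P6 to P15 (FDR 0.0493), and 0 genes passed 2-fold upwards from P6 to P15. Depth limits scarce genes such as Cd55, Cr2, Cfb and C4a.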
